A study of Homo sapiens with 48 samples.

Results

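The 10 protein-coding genes described here were near silent in vehicle-treated lymphoma cells and read out as on in at least 2 cell lines when the histone methyltransferases EZH2 and DOT1L were inhibited together. They are ALDH1A1, PDIA2, GZMA, IGF1, THSD4, PLXDC1, ASTN1, RPH3A, GLIS2 and MEIS3. They were chosen from 17598 protein-coding genes by their level in CPM (a count per 1e6 counts of its library). The rule asked for a mean under 0.5 CPM in all 4 DMSO groups and of at least 2 CPM in 2 or more of the 4 Combo groups, and left out 16 symbol prefixes, none of which removed a gene. Of the coding genes 4618 met the DMSO criterion and 10 of these, or 0.217%, met both. Because Combo and DMSO levels chose the genes, the difference between them is described and not tested.

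RNA was sequenced from 4 established GCB-DLBCL lines (germinal centre B cell type of diffuse large B cell lymphoma), namely SUDHL6, Oci-Ly7, Oci-Ly8 and Oci-Ly18. Each line was grown for 6 days with the DOT1L inhibitor EPZ-5676 and the EZH2 inhibitor GSK343 together (Combo), with GSK343 alone (EZH2i), with EPZ-5676 alone (DOT1Li), or with the vehicle DMSO, and all cultures were reseeded at day 3. The study asked how inhibiting DOT1L and EZH2 acts on cell identity. Each of the 16 groups has 3 libraries, and since the labels do not say whether these are separate cultures, p-values measure only the spread between the libraries. Library totals ran from 5174269 counts (Oci-Ly8 DOT1Li replicate 3) to 18845074, with the second lowest at 11391942, so that results in Oci-Ly8 that rest on the shallow library are also given without it. The summed level of 10 B cell marker genes was between 1871 and 2977 CPM in Combo libraries and between 1308 and 3258 CPM in DMSO libraries, with none of the 10 at 0 in any group. In bulk RNA, a gene on in few cells and a gene weakly on in all cells cannot be told apart.

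EZH2 is the enzyme within Polycomb repressive complex 2 that places a methyl mark on histone H3 at developmental and lineage genes to keep them silent. Germinal centre B cells depend on this silencing, and lymphomas derived from them often carry activating EZH2 mutations. DOT1L methylates another residue of histone H3 within the bodies of transcribed genes. GSK343 and EPZ-5676 block the catalytic sites of these enzymes, so the marks fade over days as cells divide.

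Promoters silenced by Polycomb are often rich in CG dinucleotides, and promoters of the genes are shown because they range from none to many. RefSeq promoters on GRCh38.p14, each running from 250 bases before to 50 bases after the annotated start, were found for 8 of the 10 genes; GLIS2 and PLXDC1 were not matched. The 4 printed below span the range, 5′ to 3′ on the strand of the gene, with each CG dinucleotide in capitals. The ASTN1 promoter (chr1:177164663-177164962, minus strand) holds 20 CG dinucleotides, the ALDH1A1 promoter (chr9:72953004-72953303, minus strand) 7, the GZMA promoter (chr5:55102396-55102695, plus strand) 1 and the IGF1 promoter (chr12:102481698-102481997, minus strand) 0.
ASTN1: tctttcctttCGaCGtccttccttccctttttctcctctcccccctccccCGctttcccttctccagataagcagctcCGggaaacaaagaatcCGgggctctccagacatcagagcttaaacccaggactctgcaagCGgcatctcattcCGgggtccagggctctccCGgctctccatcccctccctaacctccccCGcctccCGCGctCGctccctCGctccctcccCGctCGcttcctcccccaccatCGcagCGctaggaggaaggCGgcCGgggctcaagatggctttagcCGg
ALDH1A1: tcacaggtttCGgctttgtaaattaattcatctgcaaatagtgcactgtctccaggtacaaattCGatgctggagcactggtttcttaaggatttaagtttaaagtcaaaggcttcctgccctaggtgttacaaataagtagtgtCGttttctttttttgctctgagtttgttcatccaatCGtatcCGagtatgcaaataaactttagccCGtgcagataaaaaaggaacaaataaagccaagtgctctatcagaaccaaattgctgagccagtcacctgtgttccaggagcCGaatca
GZMA: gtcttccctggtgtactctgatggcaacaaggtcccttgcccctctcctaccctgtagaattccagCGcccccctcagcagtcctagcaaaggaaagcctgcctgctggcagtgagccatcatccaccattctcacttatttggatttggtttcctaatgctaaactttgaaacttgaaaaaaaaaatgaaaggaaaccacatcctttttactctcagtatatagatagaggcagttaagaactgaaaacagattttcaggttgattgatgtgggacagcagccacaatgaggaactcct
IGF1: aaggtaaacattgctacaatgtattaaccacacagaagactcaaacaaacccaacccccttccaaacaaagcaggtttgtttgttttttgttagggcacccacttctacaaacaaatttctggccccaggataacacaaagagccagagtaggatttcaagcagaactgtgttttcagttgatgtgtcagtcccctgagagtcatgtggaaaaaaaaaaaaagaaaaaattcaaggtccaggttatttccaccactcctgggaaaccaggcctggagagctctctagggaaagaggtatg

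Among the other matched genes, RPH3A had 15 CG dinucleotides, MEIS3 14, PDIA2 12 and THSD4 2. The median was 9.5 for the 8 genes, 10 for the 3354 promoters of coding genes under 0.5 CPM in all 4 DMSO groups, 14 for the 79 of these that reached 2 CPM in at least 1 Combo group, and 24 for 13882 coding promoters. At least 15 CG dinucleotides were held by 2 of the 8 promoters (25%), by 40.1% of silent coding promoters and by 71% of all coding promoters. The hexamer TATAAA, searched on the strand of the gene, was in 0 of the 8 windows, against 11.4% of silent and 5.61% of all coding promoters. Against the gene's 5′ end in the deposited table, the RefSeq start lies 127389 bases downstream for ALDH1A1, 221368 for RPH3A and 261 for ASTN1, and 2706 bases upstream for MEIS3, 58 for THSD4 and 3 for IGF1; it is the same base for GZMA and PDIA2.

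**Figure D1:**
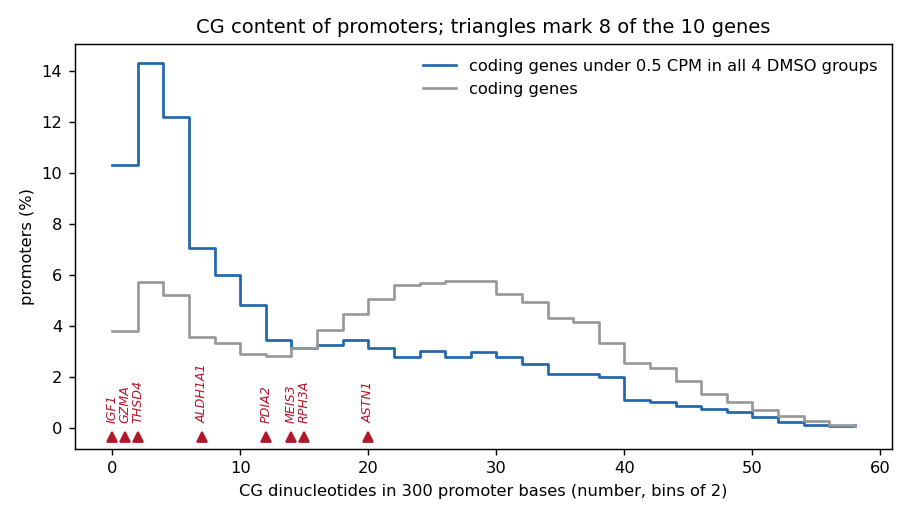
Number of CG dinucleotides in promoter windows of 300 bases (x axis, bins of 2) against the percent of promoters (y axis), for coding genes under 0.5 CPM in all 4 DMSO groups and for all coding genes. Red triangles mark the 8 matched genes, which run from 0 in IGF1 to 20 in ASTN1.

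The levels fell into 4 patterns of cell lines. ALDH1A1 passed 2 CPM with Combo in all 4 lines. GZMA, IGF1, PLXDC1, RPH3A and THSD4 did so in Oci-Ly7 and SUDHL6, GLIS2, MEIS3 and PDIA2 in Oci-Ly8 and Oci-Ly18, and ASTN1 in Oci-Ly7 and Oci-Ly18. In all, 22 of the 40 pairs of gene and line were at 2 CPM or more with Combo, and 11 were under 0.1 CPM. The 10 genes lie on 8 chromosomes, and no 2 of them are neighbours.

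**Figure D2:**
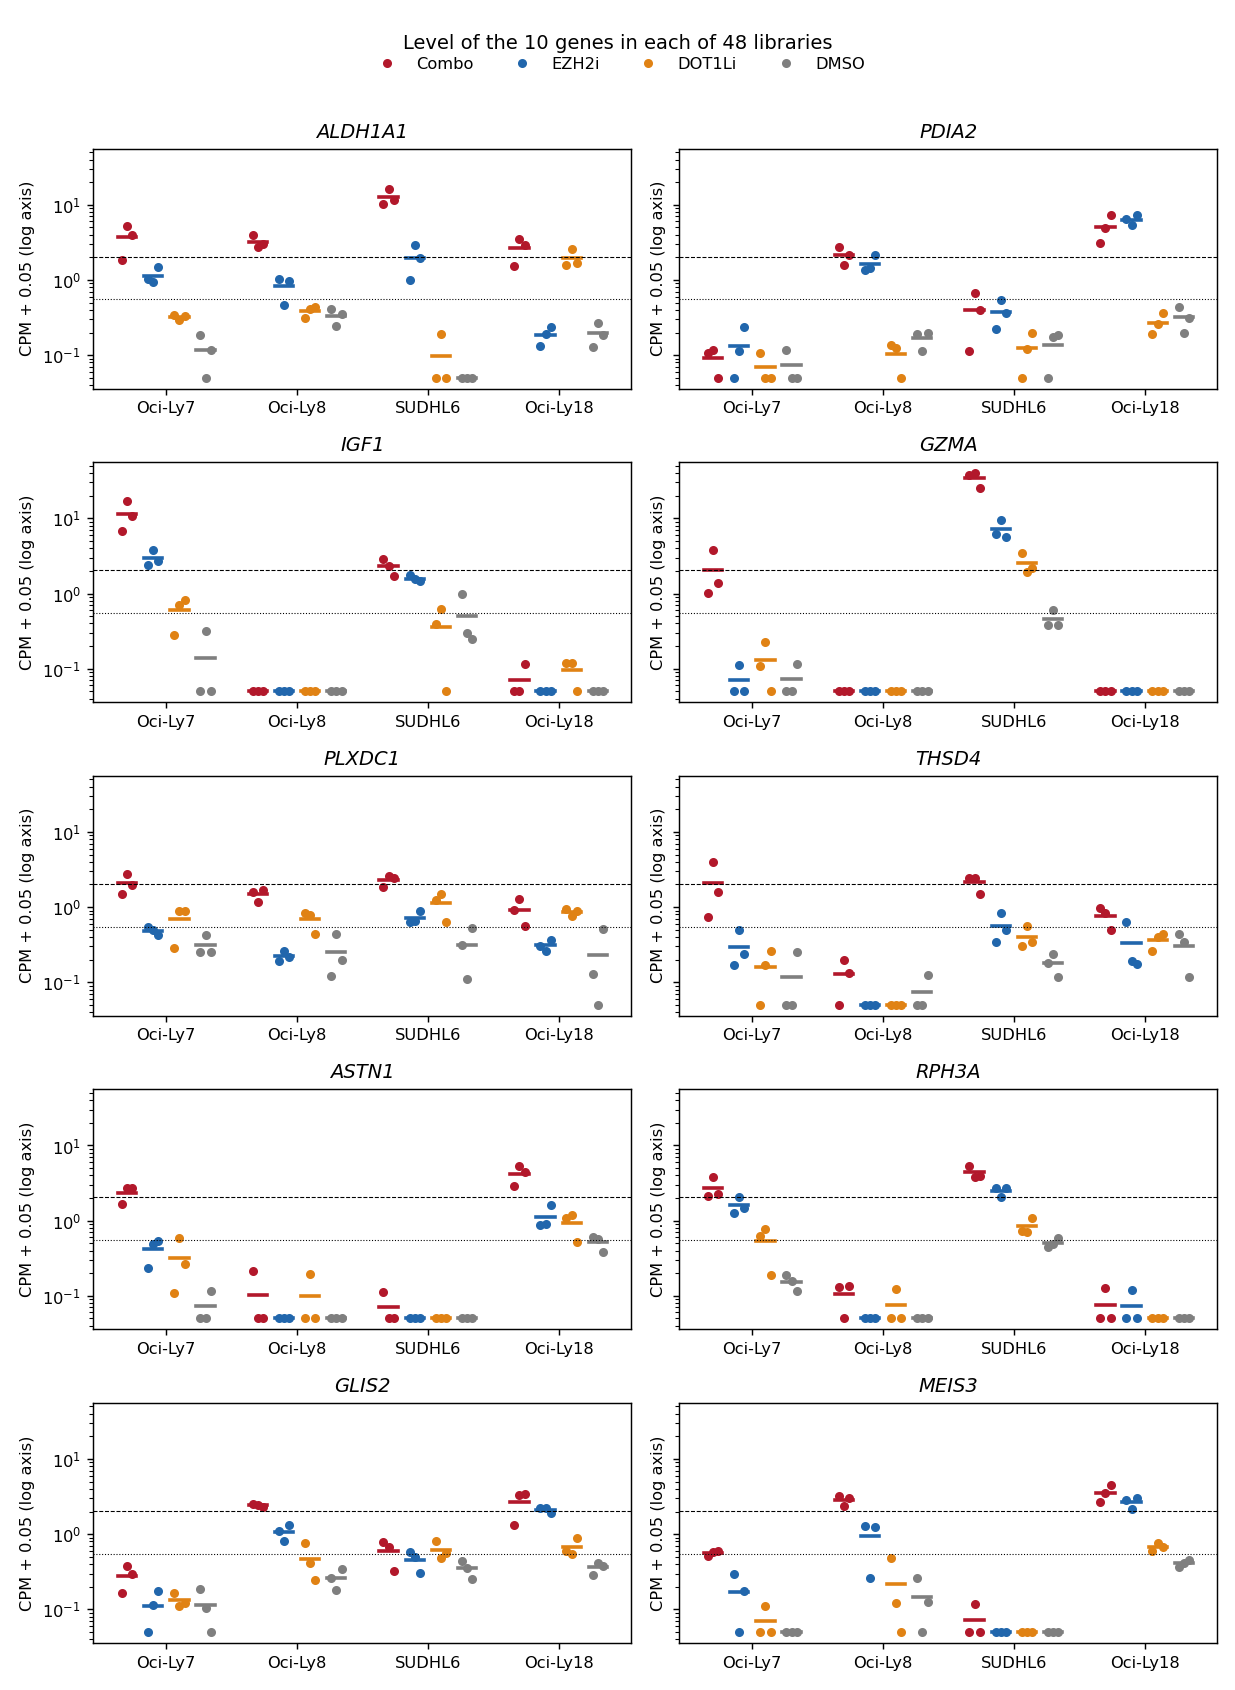
Level of each of the 10 genes in each of 48 libraries, as CPM plus 0.05 on a log axis, by cell line and treatment (Combo, EZH2i, DOT1Li, DMSO from left to right). Dots are libraries, bars are group means, and the dotted and dashed lines mark the 0.5 CPM and 2 CPM thresholds of the rule; Combo bars pass the dashed line in 4 lines for ALDH1A1 and in 2 lines for every other gene.

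ALDH1A1, PDIA2 and GZMA code for enzymes, and ALDH1A1 was the gene at 2 CPM or more with Combo in every line. It turns retinaldehyde into retinoic acid and marks many stem and progenitor cells (ENSG00000165092, GRCh38 chr9:72900671-73080442, minus strand). In SUDHL6 it had 10.2, 16.3 and 11.5 CPM with Combo, 0.938, 2.87 and 1.90 CPM with EZH2i, 0, 0.144 and 0 CPM with DOT1Li and 0 CPM in each library with DMSO. Its Combo mean there, 12.7 ± 3.18 CPM (SD, n = 3), was at least 195-fold that of DMSO, taking 3 counts over the group as the floor. In Oci-Ly7 the values were 1.82, 5.12 and 3.93 CPM with Combo, 0.976, 0.880 and 1.42 CPM with EZH2i, 0.292, 0.239 and 0.282 CPM with DOT1Li and 0.137, 0 and 0.0666 CPM with DMSO. In these 2 lines the Combo, EZH2i and DOT1Li libraries did not overlap and stood in that order.

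In Oci-Ly8, ALDH1A1 had 3.86, 2.73 and 2.99 CPM with Combo, 0.976, 0.421 and 0.931 CPM with EZH2i, 0.263, 0.365 and 0.387 CPM with DOT1Li and 0.357, 0.195 and 0.298 CPM with DMSO. Combo was again above EZH2i, and EZH2i above DOT1Li, without overlap. The second gap was narrow, between 6 counts in EZH2i replicate 2 and 2 counts in the shallow DOT1Li replicate 3. Without that shallow library these groups still did not overlap. EZH2i against DOT1Li was not called in this line (edgeR quasi-likelihood F test, log2 fold change 1.24 ± 0.57, SE, adjusted p = 0.152). The order of the single inhibitors was reversed in Oci-Ly18, with 1.47, 3.48 and 2.90 CPM with Combo, 0.0837, 0.140 and 0.188 CPM with EZH2i, 1.53, 2.55 and 1.62 CPM with DOT1Li and 0.0782, 0.221 and 0.133 CPM with DMSO. There the Combo libraries overlapped the DOT1Li libraries, and the EZH2i libraries overlapped the DMSO libraries. The Combo mean in Oci-Ly18 was 1.38-fold the DOT1Li mean.

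PDIA2, a pancreas-type protein disulfide isomerase (ENSG00000185615, chr16:283164-287215, plus strand), overlapped between Combo and EZH2i alone. In Oci-Ly18 it had 3.06, 4.87 and 7.22 CPM with Combo, 6.36, 5.26 and 7.28 CPM with EZH2i, 0.139, 0.212 and 0.308 CPM with DOT1Li and 0.391, 0.147 and 0.266 CPM with DMSO. In Oci-Ly8 it had 2.65, 1.55 and 2.08 CPM with Combo, 1.32, 1.40 and 2.08 CPM with EZH2i, 0.0878, 0.0730 and 0 CPM with DOT1Li and 0.143, 0.0650 and 0.149 CPM with DMSO. In both lines the Combo and EZH2i libraries overlapped, as did the DOT1Li and DMSO libraries. The Oci-Ly18 mean was 5.05 ± 2.08 CPM with Combo and 6.30 ± 1.01 CPM with EZH2i (SD, n = 3 each), the only 1 of the 22 pairs with the EZH2i mean on top.

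GZMA, a serine protease of cytotoxic granules (ENSG00000145649, chr5:55102646-55110252, plus strand), had the highest level per kilobase of the 10 genes. In SUDHL6 it had 37.5, 39.9 and 25.5 CPM with Combo, 6.15, 9.54 and 5.58 CPM with EZH2i, 3.40, 1.87 and 2.14 CPM with DOT1Li and 0.331, 0.558 and 0.335 CPM with DMSO. These 4 groups did not overlap, and the Combo mean of 34.3 ± 7.72 CPM was 84.2-fold the DMSO mean, 13.9-fold the DOT1Li mean and 4.84-fold the EZH2i mean. Per kilobase of exon it was 38.4 CPM, against 4.44 CPM for ALDH1A1, the second highest, in the same line.

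In Oci-Ly7, GZMA had 0.968, 3.74 and 1.33 CPM with Combo, 0, 0.0628 and 0 CPM with EZH2i, 0.0584, 0.180 and 0 CPM with DOT1Li and 0, 0 and 0.0666 CPM with DMSO, and the groups other than Combo overlapped. Replicate 2 lay far above the other Combo libraries, and without it the Combo mean would fall under 2 CPM and GZMA would not meet the rule. It had 0 counts in all 24 libraries of Oci-Ly8 and Oci-Ly18. GZMA is a marker of cytotoxic lymphocytes, and the 6 T cell markers summed to 16.3 to 20.4 CPM with Combo in SUDHL6, 12.3 to 16.9 with EZH2i, 8.47 to 10.6 with DOT1Li and 8.43 to 8.66 with DMSO. CD2, CD5 and CD3D were at 0 in the SUDHL6 Combo group, and 5 of the 6 were under 0.5 CPM. In Oci-Ly7 the same sum was 12.95 to 19.2 CPM with Combo and 50.8 to 58.8 CPM with DMSO. The part of these markers in the GZMA level was not tested.

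IGF1 and THSD4 code for secreted proteins. IGF1 is the growth factor that signals through the IGF1R kinase (ENSG00000017427, chr12:102395874-102481744, minus strand), and its highest group was Oci-Ly7, with 6.83, 16.8 and 10.6 CPM with Combo, 2.32, 3.77 and 2.65 CPM with EZH2i, 0.233, 0.659 and 0.775 CPM with DOT1Li and 0, 0.265 and 0 CPM with DMSO. The Combo mean of 11.4 ± 5.04 CPM was 129-fold the DMSO mean, which rests on 5 counts, and 3.92-fold the EZH2i mean, and the Combo, EZH2i and DOT1Li libraries did not overlap. In SUDHL6 it had 2.85, 2.28 and 1.67 CPM with Combo, 1.70, 1.49 and 1.40 CPM with EZH2i, 0.340, 0.574 and 0 CPM with DOT1Li and 0.926, 0.248 and 0.201 CPM with DMSO. There the Combo and EZH2i libraries overlapped, as did the DOT1Li and DMSO libraries, and 1 DMSO library stood above the others. Oci-Ly8 had 0 counts of IGF1 in every library.

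THSD4, a thrombospondin-domain protein of fibrillin microfibrils (ENSG00000187720, chr15:71096952-71783383, plus strand), stayed close to the 2 CPM threshold. In SUDHL6 it had 2.42, 2.35 and 1.46 CPM with Combo, 0.293, 0.772 and 0.444 CPM with EZH2i, 0.255, 0.502 and 0.295 CPM with DOT1Li and 0.132, 0.186 and 0.0671 CPM with DMSO. The Oci-Ly7 values were 0.683, 3.88 and 1.51 CPM with Combo, 0.122, 0.440 and 0.185 CPM with EZH2i, 0, 0.120 and 0.211 CPM with DOT1Li and 0, 0 and 0.1998 CPM with DMSO, with 1 of 3 Combo libraries over 2 CPM. Combo libraries did not overlap those of any other treatment in either line, while EZH2i and DOT1Li libraries overlapped. The 6 fibroblast and endothelial markers, which bear on THSD4 and PLXDC1, summed to 102 to 120 CPM with Combo and 71.1 to 76.2 CPM with DMSO in Oci-Ly7, and to 12.7 to 18.1 CPM with Combo and 3.15 to 3.97 CPM with DMSO in SUDHL6. In those 2 lines 4 and 5 of the 6 were under 0.5 CPM with Combo, and LUM and DCN were at 0 with DMSO. Their part in the levels of THSD4 and PLXDC1 was not tested.

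PLXDC1, ASTN1 and RPH3A are genes of cell surface and synapse. PLXDC1 is a transmembrane protein first known from tumour endothelium (ENSG00000161381, chr17:39063313-39154394, minus strand). In SUDHL6 it had 1.80, 2.56 and 2.37 CPM with Combo, 0.586, 0.607 and 0.825 CPM with EZH2i, 1.19, 1.44 and 0.591 CPM with DOT1Li and 0.265, 0.0620 and 0.469 CPM with DMSO. In Oci-Ly7 it had 1.42, 2.69 and 1.94 CPM with Combo, 0.488, 0.440 and 0.369 CPM with EZH2i, 0.233, 0.838 and 0.845 CPM with DOT1Li and 0.206, 0.371 and 0.1998 CPM with DMSO. Combo libraries stood above all others, and EZH2i and DOT1Li libraries overlapped in both lines.

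Short of the threshold, PLXDC1 had Combo means of 1.43 CPM in Oci-Ly8 and 0.870 CPM in Oci-Ly18, against 0.204 and 0.181 CPM with DMSO. It was the gene for which the mean with EZH2i was below that with DOT1Li in every line: 0.432 against 0.639 CPM in Oci-Ly7, 0.171 against 0.636 CPM in Oci-Ly8, 0.673 against 1.07 CPM in SUDHL6 and 0.258 against 0.819 CPM in Oci-Ly18.

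ASTN1, an adhesion protein with which migrating neurons hold on to glia (ENSG00000152092, chr1:176857302-177164973, minus strand), had 2.82, 5.26 and 4.38 CPM with Combo, 0.837, 0.842 and 1.57 CPM with EZH2i, 1.04, 1.13 and 0.462 CPM with DOT1Li and 0.548, 0.516 and 0.332 CPM with DMSO in Oci-Ly18. In Oci-Ly7 it had 1.59, 2.69 and 2.66 CPM with Combo, 0.183, 0.440 and 0.492 CPM with EZH2i, 0.0584, 0.539 and 0.211 CPM with DOT1Li and 0, 0 and 0.0666 CPM with DMSO. The Combo libraries stood above the rest in both lines, while EZH2i and DOT1Li libraries overlapped, and the Combo mean was 3.84-fold the EZH2i mean in Oci-Ly18 and 6.23-fold in Oci-Ly7.

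RPH3A, rabphilin, is an effector of Rab3 on synaptic vesicles (ENSG00000089169, chr12:112570380-112898881, plus strand). In SUDHL6 it had 5.34, 3.81 and 3.83 CPM with Combo, 2.70, 1.99 and 2.67 CPM with EZH2i, 0.680, 0.646 and 1.03 CPM with DOT1Li and 0.397, 0.434 and 0.536 CPM with DMSO, and in Oci-Ly7 2.11, 3.74 and 2.24 CPM with Combo, 1.22, 2.01 and 1.42 CPM with EZH2i, 0.584, 0.718 and 0.141 CPM with DOT1Li and 0.137, 0.106 and 0.0666 CPM with DMSO. In each of these lines the 4 groups did not overlap and stood in the order Combo, EZH2i, DOT1Li, DMSO, with the Combo mean 1.77-fold the EZH2i mean in SUDHL6 and 1.74-fold in Oci-Ly7. Both ASTN1 and RPH3A are neuronal genes. The 6 neuronal markers summed to 77.1 to 93.7 CPM with Combo and 41.6 to 44.6 CPM with DMSO in Oci-Ly18, and to 13.9 to 17.5 CPM with Combo and 8.66 to 10.0 CPM with DMSO in Oci-Ly7, but to 83.6 to 104 CPM with Combo and 113 to 136 CPM with DMSO in SUDHL6, and STMN2, SNAP25 and RBFOX3 were at 0 in the SUDHL6 Combo group. Their part in the levels of ASTN1 and RPH3A was not tested.

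GLIS2 and MEIS3 are transcription factors, and both were on in Oci-Ly8 and Oci-Ly18. GLIS2 is a zinc finger factor known from kidney disease (ENSG00000126603, chr16:4314761-4339597, plus strand). In Oci-Ly8 it had 2.49, 2.36 and 2.25 CPM with Combo, 1.05, 0.771 and 1.26 CPM with EZH2i, 0.702, 0.365 and 0.193 CPM with DOT1Li and 0.214, 0.130 and 0.298 CPM with DMSO. In Oci-Ly18 it had 1.29, 3.25 and 3.35 CPM with Combo, 2.18, 2.17 and 1.88 CPM with EZH2i, 0.555, 0.496 and 0.847 CPM with DOT1Li and 0.235, 0.369 and 0.332 CPM with DMSO. Combo stood above EZH2i without overlap in Oci-Ly8 only, and 1 Oci-Ly18 Combo library was below all EZH2i libraries. In SUDHL6, where GLIS2 did not reach 2 CPM with any treatment, the means were 0.549 CPM with Combo, 0.408 with EZH2i, 0.571 with DOT1Li and 0.303 with DMSO.

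MEIS3, a homeobox factor that partners with HOX and PBX proteins (ENSG00000105419, chr19:47403124-47419527, minus strand), had 2.63, 3.48 and 4.45 CPM with Combo, 2.76, 2.10 and 3.01 CPM with EZH2i, 0.555, 0.708 and 0.616 CPM with DOT1Li and 0.313, 0.369 and 0.398 CPM with DMSO in Oci-Ly18. In Oci-Ly8 it had 3.22, 2.29 and 2.99 CPM with Combo, 1.25, 0.210 and 1.20 CPM with EZH2i, 0.439, 0.0730 and 0 CPM with DOT1Li and 0.214, 0 and 0.0746 CPM with DMSO. The Combo libraries were apart from all others in Oci-Ly8 and overlapped the EZH2i libraries in Oci-Ly18. In Oci-Ly7 it had 0 counts with DMSO and a Combo mean of 0.509 ± 0.0470 CPM (SD, n = 3), short of the threshold. In Oci-Ly18, where PDIA2, GLIS2 and MEIS3 were on, the 5 epithelial markers summed to 9.25 to 12.8 CPM with Combo, 6.27 to 7.72 with EZH2i, 4.01 to 5.60 with DOT1Li and 2.43 to 3.44 with DMSO, without overlap. EPCAM and KRT19 were at 0 there with Combo, and 3 of the 5 were under 0.5 CPM. In Oci-Ly8 the sum was 0.0739 to 0.2495 CPM with Combo, 0 with EZH2i, 0 to 0.0730 with DOT1Li and 0 with DMSO; KRT19 was at 0 with Combo, and 5 of the 5 were under 0.5 CPM. Their part in the levels of PDIA2, GLIS2 and MEIS3 was not tested.

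Several members lay close to the thresholds that chose them. The second highest Combo group was at 2.01 CPM for GZMA and 2.02 CPM for PLXDC1 and THSD4, while PTPRK at 1.96, NXF3 at 1.78 and P3H3 at 1.75 CPM were the nearest genes left outside. The highest DMSO group was at 0.465 CPM for ASTN1, 0.458 for IGF1 and 0.456 for RPH3A, with AHNAK at 0.585, RAPGEF4 at 0.617 and AK5 at 0.620 CPM just outside. Scaling the libraries with TMM factors would keep 6 of the 10 genes and drop GZMA, IGF1, THSD4 and PLXDC1. Asking every library to pass the thresholds would keep 2, ALDH1A1 and MEIS3.

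In 3 of the 4 lines 1 Combo replicate was the highest or the lowest for every gene on there. In Oci-Ly7, replicate 2 was the highest and replicate 1 the lowest Combo library for all 7 genes on in that line. In Oci-Ly18, replicate 1 was the lowest for all 5 genes on there, and in Oci-Ly8 replicate 1 was the highest for all 4. SUDHL6 showed no such order: of its 6 genes, 3 were highest in replicate 1 and 3 in replicate 2. The totals of the 3 Oci-Ly7 Combo libraries were 17566705, 15224550 and 16520307 counts. Without Oci-Ly7 Combo replicate 2 the rule would find 7 genes, losing GZMA, THSD4 and PLXDC1. ALDH1A1, RPH3A, GLIS2 and MEIS3 met the rule whichever of the 24 Combo and DMSO libraries was left out.

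The next comparison asks how the level with both inhibitors relates to that with each alone, in the 22 pairs of gene and line at 2 CPM or more with Combo. These pairs were kept for their high Combo level, so the Combo values describe the selection and test nothing. The Combo mean was above the EZH2i mean in 21 of 22, and the EZH2i mean was above the DOT1Li mean in 18. The 22 pairs come from 10 genes and are not separate cases, and the same count was not made over the other silent genes. The exceptions to the second order were PLXDC1 in both its lines, ALDH1A1 in Oci-Ly18 and GZMA in Oci-Ly7. The median ratio was 3.59 for Combo over EZH2i and 8.02 for Combo over DOT1Li. EZH2i alone brought 6 of the 22 pairs to 2 CPM or more, and DOT1Li alone brought 1, GZMA in SUDHL6.

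On the CPM scale the gain with Combo over DMSO was greater than the sum of the gains with EZH2i and DOT1Li in 21 of 22 pairs, with the exception of PDIA2 in Oci-Ly18. These gains share the DMSO libraries, and this count too is a description. For GZMA in SUDHL6 the gain was 33.9 CPM with Combo, against a sum of 8.75 CPM. For ALDH1A1 in SUDHL6 it was 12.7 against 1.95 CPM, and for IGF1 in Oci-Ly7 11.3 against 3.29 CPM. GLIS2 in Oci-Ly18 lay close to the sum, with 2.32 against 2.09 CPM.

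**Figure D3:**
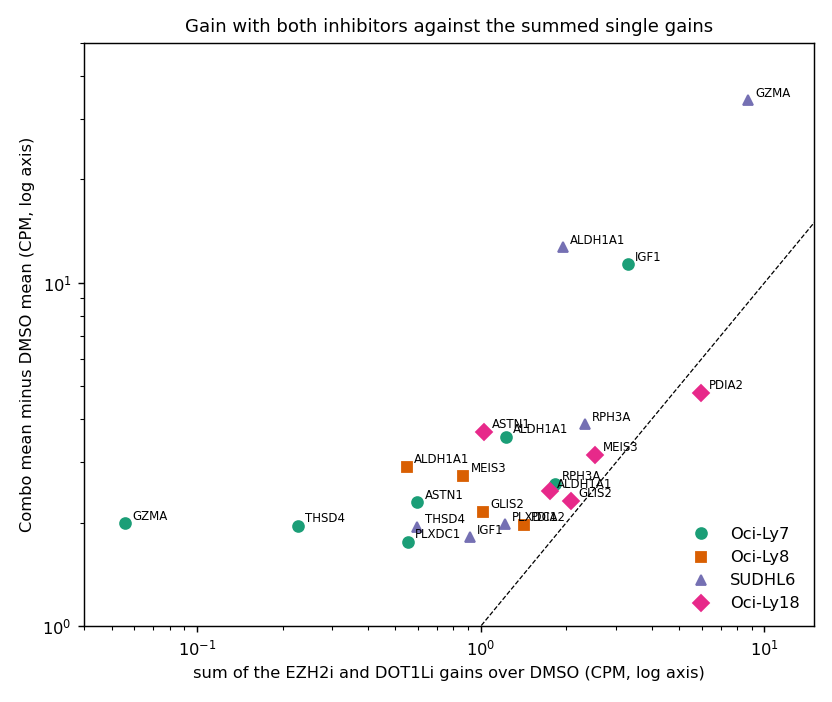
Combo mean minus DMSO mean (y axis, CPM, log scale) against the sum of the EZH2i and DOT1Li gains over DMSO (x axis, CPM, log scale) for the 22 pairs of gene and line at 2 CPM or more with Combo; symbols mark the cell line. The dashed line marks equality, and PDIA2 in Oci-Ly18 is the point below it.

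The same 2 CPM level was then counted in libraries that the rule did not use. None of the 4618 silent coding genes, and so none of the 10, reached 2 CPM in 2 or more EZH2i groups or in 2 or more DOT1Li groups. In at least 1 EZH2i group 6 of the 10 did so (GZMA, RPH3A, IGF1, GLIS2, PDIA2 and MEIS3), against 27 silent coding genes, or 0.585%. In at least 1 DOT1Li group 1 of the 10 did so, GZMA, against 8 silent coding genes, or 0.173%. With Combo 101 silent coding genes (2.19%) reached 2 CPM in at least 1 line, 91 of them in exactly 1. By line these were 34 in Oci-Ly7, 11 in Oci-Ly8, 25 in SUDHL6 and 43 in Oci-Ly18, and the 10 genes made up 7, 4, 6 and 5 of them. ALDH1A1 was the 1 silent coding gene that passed in 4 lines. The opposite rule, under 0.5 CPM in all 4 Combo groups and at least 2 CPM in 2 or more DMSO groups, found 0 of 3843 coding genes.

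**Figure D4:**
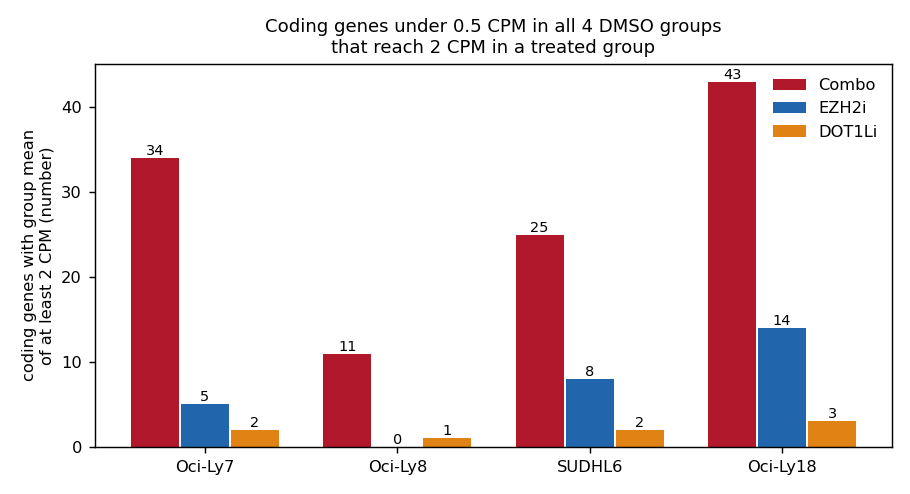
Number of coding genes (y axis) that were under 0.5 CPM in all 4 DMSO groups and at 2 CPM or more in the named treated group, by cell line. Combo bars are the tallest in each line, from 11 in Oci-Ly8 to 43 in Oci-Ly18.

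EZH2i and DOT1Li libraries took no part in choosing the genes, so the single inhibitors could be tested against each other. Over the 4 lines, 6 of the 9 genes that passed the filter on low counts were higher with EZH2i than with DOT1Li, 1 was lower and 2 were not called (edgeR quasi-likelihood F test with line as a term, Benjamini-Hochberg adjusted p under 0.05 over 16887 genes). Of all genes tested 17% were called higher and 12.9% lower. THSD4 did not pass the filter and has no test. PDIA2, IGF1, MEIS3, RPH3A and ASTN1 passed it through their EZH2i libraries and PLXDC1 through its DOT1Li libraries, so the number tested depended on these levels. Without the filter, over 34579 genes, the same 6 and ALDH1A1 were called higher and PLXDC1 lower. PDIA2 differed most, with a log2 fold change of 4.27 ± 0.31 (SE, adjusted p = 9.25e-11), and IGF1 followed with 2.22 ± 0.33 (adjusted p = 1.50e-05). The others called higher were MEIS3 (2.08 ± 0.35, adjusted p = 8.43e-05), RPH3A (1.56 ± 0.25, adjusted p = 1.79e-05), GZMA (1.39 ± 0.31, adjusted p = 0.00227) and GLIS2 (0.92 ± 0.26, adjusted p = 0.00824). PLXDC1 was lower, at -1.05 ± 0.23 (adjusted p = 0.000804). ALDH1A1 (0.71 ± 0.59, adjusted p = 0.396) and ASTN1 (0.26 ± 0.36, adjusted p = 0.640) were not called. GZMA was not called with DESeq2 (0.87, adjusted p = 0.150), and the mean of the 4 line contrasts, each with equal weight, gave -0.035 for it (adjusted p = 0.999935). That mean also ended the calls of MEIS3 (1.59), RPH3A (0.71), IGF1 (0.47), each with an adjusted p of 0.999935, and GLIS2 (0.51, adjusted p = 0.298), while PDIA2 was called by it as well (3.22, adjusted p = 4.13e-06). GZMA had 0 counts in both groups of Oci-Ly8 and of Oci-Ly18, and 1 with EZH2i against 4 with DOT1Li in Oci-Ly7. Its value over the lines thus rests on SUDHL6, with 366 against 95 counts. IGF1 had 0 counts in both groups of Oci-Ly8 and 0 against 2 in Oci-Ly18. RPH3A had 0 against 1 in Oci-Ly8 and 1 against 0 in Oci-Ly18. The values of IGF1 and RPH3A thus rest on Oci-Ly7 and SUDHL6. MEIS3 had 0 counts in both groups of SUDHL6. ALDH1A1 was called higher by that mean and also when no filter on low counts was used.

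Within SUDHL6, 4 genes were higher with EZH2i than with DOT1Li and 0 were lower, against 9.17% and 6.73% of all genes. GZMA (1.53 ± 0.26, adjusted p = 0.000214), RPH3A (1.60 ± 0.34, adjusted p = 0.00121) and IGF1 (2.27 ± 0.50, adjusted p = 0.00201) were called. The IGF1 value moved to 3.19 without DOT1Li replicate 2 and to 1.69 without DOT1Li replicate 3, and stayed called (adjusted p = 0.00151 and 0.0168). ALDH1A1 had 98 counts with EZH2i and 2 with DOT1Li, both in replicate 2, a ratio of 37.7 with a 95% counting interval from 10.2 to 316 (adjusted p = 1.55e-06). In Oci-Ly7, 3 genes were higher and 0 lower, against 6.03% and 2.88% of all genes. These were IGF1 (2.38 ± 0.38, adjusted p = 0.000122), RPH3A (1.60 ± 0.38, adjusted p = 0.00639) and ALDH1A1 (1.96 ± 0.49, adjusted p = 0.00848). The calls of RPH3A and ALDH1A1 in Oci-Ly7 ended when certain libraries were left out, ALDH1A1 without EZH2i replicate 3 (adjusted p = 0.0583), and RPH3A without DOT1Li replicate 3 (0.0534) or EZH2i replicate 2 (0.0575).

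In Oci-Ly18, 3 genes were higher with EZH2i than with DOT1Li and 2 were lower, against 11.8% and 9.46% of all genes. PDIA2 (4.82 ± 0.36, adjusted p = 4.12e-12), MEIS3 (2.06 ± 0.42, adjusted p = 0.000488) and GLIS2 (1.72 ± 0.32, adjusted p = 0.000141) were higher. ALDH1A1 was lower, at -3.66 ± 0.54 (adjusted p = 3.40e-06), and PLXDC1 was lower at -1.61 ± 0.48 (adjusted p = 0.0135), a call that ended without EZH2i replicate 2 (adjusted p = 0.0598). In Oci-Ly8, 2 genes were higher and 1 lower, against 9.78% and 6.25% of all genes. PDIA2 had 77 counts with EZH2i and 2 with DOT1Li, a ratio of 24.9 with a 95% counting interval from 6.65 to 209 (adjusted p = 3.79e-06, and 4.40e-06 without the shallow DOT1Li replicate 3). MEIS3 was higher (2.17 ± 0.70, adjusted p = 0.0320), but not without that library (1.90, adjusted p = 0.0549), its log2 fold change was 3.92 without DOT1Li replicate 1 (adjusted p = 0.0110), and its adjusted p was 0.116 without EZH2i replicate 1, 0.135 without EZH2i replicate 3 and 0.173 without DOT1Li replicate 2. PLXDC1 was lower (-1.95 ± 0.56, adjusted p = 0.0143, and 0.0115 without the shallow library), and its adjusted p was 0.0509 to 0.0591 without DOT1Li replicate 1 or 2 or EZH2i replicate 1 or 3.

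**Figure D5:**
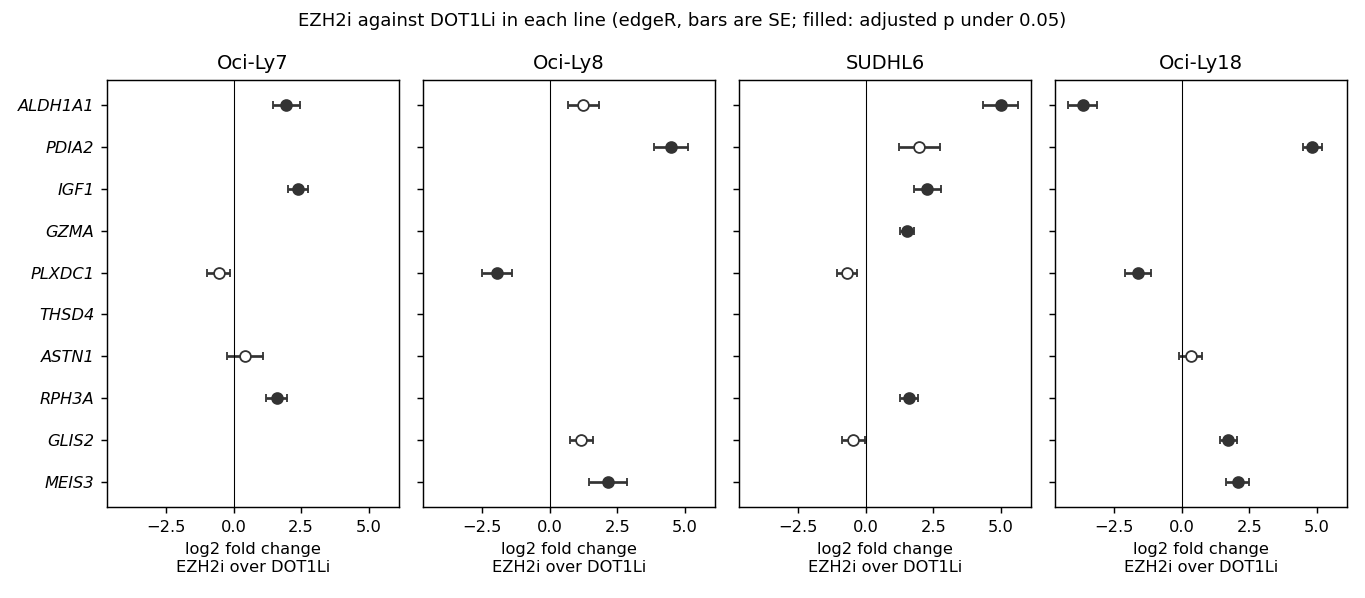
Log2 fold change of EZH2i over DOT1Li (x axis) for each gene (rows) in each cell line (panels), from edgeR on the 24 single-inhibitor libraries. Bars are standard errors, filled dots have an adjusted p under 0.05, and pairs with fewer than 10 counts in both groups together, and THSD4, are left out; ALDH1A1 is right of 0 in Oci-Ly7, Oci-Ly8 and SUDHL6 and left of it in Oci-Ly18.

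The size of the difference between the single inhibitors differed between lines for 2 of the 9 tested genes (F test over the 4 lines, against 16.6% of all genes). For ALDH1A1 the adjusted p was 2.19e-08, with log2 fold changes of 1.96 in Oci-Ly7, 1.24 in Oci-Ly8, 4.98 in SUDHL6 and -3.66 in Oci-Ly18. Of these the Oci-Ly8 value was not called within its line (adjusted p = 0.152). For GLIS2 the adjusted p of the difference between lines was 0.0220, with 1.17 in Oci-Ly8 and 1.72 in Oci-Ly18 against -0.45 in SUDHL6 and -0.40 in Oci-Ly7. Within lines only the Oci-Ly18 value was called. The adjusted p within the line was 0.0524 in Oci-Ly8, 0.551 in SUDHL6 and 0.899 in Oci-Ly7, the last with 3 against 4 counts. The GLIS2 difference was lost without SUDHL6 DOT1Li replicate 1 (adjusted p = 0.0939), SUDHL6 EZH2i replicate 3 (0.0576), or Oci-Ly18 DOT1Li replicate 1 (0.0520) or replicate 2 (0.0516).

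The genes next to each member on the chromosome were examined for changes in the same lines, in a fit of all 48 libraries over 17749 genes (edgeR). Of the 20 nearest coding neighbours 12 could be tested, and 2 were higher with Combo than DMSO in Oci-Ly7 (17.7% of all genes), 1 in Oci-Ly8 (18.1%), 2 in SUDHL6 (22.6%) and 2 in Oci-Ly18 (21.1%). Lower were 2 in Oci-Ly7 (12.2%), 2 in Oci-Ly8 (16.9%), 3 in SUDHL6 (16.8%) and 2 in Oci-Ly18 (14%). OAS1, an interferon-induced gene 6974 bases from RPH3A, was lower in both lines in which RPH3A was on, at 21.4 against 48.3 CPM in Oci-Ly7 (log2 fold change -1.22 ± 0.12, adjusted p = 1.22e-11) and 7.06 against 8.89 CPM in SUDHL6 (-0.45 ± 0.16, adjusted p = 0.0199). The SUDHL6 call ended without Combo replicate 1 or 3 or DMSO replicate 1 or 3 (adjusted p = 0.0511, 0.0608, 0.0876 and 0.0694). OAS1 was also lower in Oci-Ly18 (-1.38 ± 0.22, adjusted p = 1.31e-06) and higher in Oci-Ly8 (0.70 ± 0.12, adjusted p = 6.43e-06). The other lower calls were DHX34 beside MEIS3, in Oci-Ly7, Oci-Ly8 and SUDHL6, TFAP4 beside GLIS2, in SUDHL6 and Oci-Ly18, and CORO7 beside GLIS2, in Oci-Ly8, with log2 fold changes from -0.69 to -0.20. Of these, the calls of DHX34 and TFAP4 in SUDHL6 held whichever library was left out. CORO7 was not called without Oci-Ly8 DMSO replicate 3 (adjusted p = 0.203) or Combo replicate 1 (0.0626), nor DHX34 in Oci-Ly7 without DMSO replicate 3 (0.160) or Combo replicate 2 (0.241) or 3 (0.0538). In Oci-Ly8 the DHX34 call ended without DMSO replicate 2 (0.374) or Combo replicate 1 (0.0787) or 3 (0.0975) of that line, or without DMSO replicate 2 (0.0628) or Combo replicate 2 (0.0654) of Oci-Ly18. TFAP4 in Oci-Ly18 was not called without DMSO replicate 1 (0.122) or 2 (0.0648) or Combo replicate 2 (0.0712) or 3 (0.161).

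Beside ASTN1, BRINP2 lies 5984 bases away on the opposite strand and is another gene of the nervous system. It had 1.02, 3.35 and 2.84 CPM with Combo in Oci-Ly7, against 0 CPM in each DMSO library, and 0.857, 1.62 and 2.06 CPM with Combo in Oci-Ly18, also against 0. The Combo mean was at least 38.8-fold (adjusted p = 7.85e-08) and at least 20.9-fold (adjusted p = 3.80e-06) higher, taking 3 counts over the DMSO group as the floor. Outside Combo its highest group mean was 0.344 CPM, with EZH2i in Oci-Ly18, so it passed the filter on low counts through its Combo libraries. Both calls held without that filter. BRINP2 had 0 counts in all libraries of Oci-Ly8 and SUDHL6, and ASTN1 had at most 2 counts in any group of these 2 lines. On the other side of ASTN1, PAPPA2 averaged 1.88 ± 0.801 CPM with Combo and 0.152 ± 0.0404 CPM with DMSO in SUDHL6 (SD, n = 3 each, adjusted p = 4.40e-07), a line where ASTN1 was not on.

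CDC20B lies 2718 bases from GZMA on the other strand. Outside Combo its highest group mean was 0.355 CPM, with DOT1Li in SUDHL6, so it passed the filter on low counts through its Combo libraries. The 2 calls given next held without that filter. It averaged 1.29 ± 0.497 CPM with Combo and 0.151 ± 0.0739 CPM with DMSO in SUDHL6 (adjusted p = 3.36e-05), and 0.733 ± 0.124 CPM with Combo and 0.0753 ± 0.0799 CPM with DMSO in Oci-Ly7 (adjusted p = 0.000419; SD, n = 3 each), the 2 lines in which GZMA was on; in Oci-Ly7 its log2 fold change was 2.97, and 4.09 without DMSO replicate 2. GZMK, the granzyme gene on its other side, averaged 0.618 CPM with Combo and 0.196 CPM with DMSO in SUDHL6 and had 0 counts in the other lines; it was too low to be tested. Near ALDH1A1, ANXA1 averaged 0.293 CPM in Oci-Ly7, 0.185 in Oci-Ly8 and 0.607 in SUDHL6 with Combo and had 0 counts with DMSO in each, which is at least 4.73-, 2.64- and 9.35-fold higher. In Oci-Ly18, where ALDH1A1 was also on, ANXA1 had 3 counts with Combo and 0 with DMSO, which gives no fold. Beside THSD4, LRRC49 averaged 1.91 ± 0.204 CPM with Combo and 0.644 ± 0.211 CPM with DMSO in Oci-Ly18 (SD, n = 3 each, adjusted p = 0.00138). THSD4 was not on in that line. PDIA2 is 153 bases from ARHGDIG, which was at most 0.122 CPM in a Combo group, and 224 bases from AXIN1, which was between 45.9 and 73.8 CPM in all 16 groups.

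Some members overlap other genes, and since the strand setting of the counting is not given in the sources used here, reads there cannot be told apart. PAM16 and GLIS2-AS1 overlap GLIS2 on the other strand; PAM16 was between 1.09 and 3.34 CPM in all 16 groups. RDM1P5 and ENSG00000286443 overlap PLXDC1 and were higher with Combo in Oci-Ly7 (edgeR, adjusted p = 0.00629 and 0.00995). Neither was called in SUDHL6 (0.148 and 0.222), where PLXDC1 was also on. HELLPAR and LINC02456 overlap IGF1, and THSD4-AS1, CT62, HMGB1P6, ENSG00000212664 and ENSG00000278408 overlap THSD4. HELLPAR was lower with Combo in Oci-Ly18 (edgeR, log2 fold change -0.71, adjusted p = 0.000217), where IGF1 was not on. Calls of overlapping genes were not repeated under other settings.

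Of 24 relatives with the same symbol root as a member, 14 were tested for Combo against DMSO, and 6 were higher in Oci-Ly7, 1 in Oci-Ly8, 3 in SUDHL6 and 7 in Oci-Ly18, beside 17.7%, 18.1%, 22.6% and 21.1% of all genes. Lower with Combo were 3 in Oci-Ly7, 2 in Oci-Ly8, 4 in SUDHL6 and 1 in Oci-Ly18, beside 12.2%, 16.9%, 16.8% and 14% of all genes. Several relatives of ALDH1A1, GZMA, IGF1 and PLXDC1 were low: with Combo, ALDH1A2 was at most 0.181 CPM, GZMB 0.0492, GZMH 0.0404, GZMM 0.221, GZMK 0.618, IGF2 0.0246 and PLXDC2 0.0605 CPM in any line, and ALDH1A3 reached 0.833 CPM in Oci-Ly18. MEIS1 was higher with Combo than DMSO in Oci-Ly18, at 7.07 against 1.86 CPM (log2 fold change 1.85 ± 0.24, adjusted p = 2.84e-08). It was also higher in Oci-Ly8 (0.88, adjusted p = 0.0425). MEIS2 was higher in Oci-Ly18 and lower in Oci-Ly8. THSD7A and GLIS3 were higher in Oci-Ly7 and Oci-Ly18, and THSD7B in these lines and SUDHL6. THSD1 was higher in Oci-Ly7 and SUDHL6 (8.38 against 2.38 CPM in SUDHL6). ASTN2 was higher in Oci-Ly18 (13.2 against 5.94 CPM). Besides MEIS2 and IGF2R, the lower calls were PDIA3 in all 4 lines and PDIA4 and PDIA6 in Oci-Ly7 and SUDHL6. IGF1R, the receptor of IGF1, was higher with Combo in Oci-Ly7, at 29.1 against 18.8 CPM (0.58 ± 0.13, adjusted p = 0.000453). In SUDHL6 it was at 69.7 against 47.6 CPM (0.43 ± 0.12, adjusted p = 0.00282). It was not called in Oci-Ly8 (-0.02, adjusted p = 0.981) or Oci-Ly18 (0.11, 0.497), and a difference between lines was not tested. With EZH2i alone IGF1R was at 31.5 CPM in Oci-Ly7 and 79.1 CPM in SUDHL6. IGF2R was higher in Oci-Ly7 (0.50, adjusted p = 0.00175) and Oci-Ly18 (0.55, 0.000545). It was lower in SUDHL6 (-0.38, 0.0130) and not called in Oci-Ly8 (0.18, 0.304).

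In lists of gene families made from symbols, 4 of the 10 genes fell in a list, each in another; the lists are not complete, and GLIS2 and ASTN1 are in neither the zinc finger nor the adhesion list. MEIS3 is the 1 member among 90 silent genes of transcription factor families, IGF1 among 122 of growth factors and cytokines, GZMA among 129 immune surface and granule genes, and ALDH1A1 among 64 detoxification enzymes. Of these classes, 2 of 90, 6 of 122, 3 of 129 and 2 of 64 genes reached 2 CPM in at least 1 Combo group, beside 101 of 4618 silent coding genes.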

How the data were processed

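The authors deposited raw counts per gene for 48 polyA+ stranded libraries; STAR, DESeq2 and GRCh38 (hg38) are named per the submitters' processing notes, while how reads were counted, with or without strand, and the inhibitor doses were not given in the sources used here. CPM was computed from these counts over all 37706 genes, with no other scaling. The members and lists were chosen with earlier results of these data known. EZH2i was tested against DOT1Li on the 24 single-inhibitor libraries with edgeR 4.0.16 (R 4.3.3; filterByExpr, TMM, robust quasi-likelihood F test, 16 residual degrees of freedom, Benjamini-Hochberg adjustment over 16887 genes), and Combo against DMSO of neighbours and relatives in a fit of all 48 libraries over 17749 genes. A gene was called at an adjusted p under 0.05. The fit was tested on simulated data with 200 changed genes. Every member is described; genes outside the set are those next to a threshold, next to a member, or sharing its symbol root. Counting intervals (95%, exact) and floors of 3 counts cover counting error only. Same-numbered libraries were not treated as pairs. Alternatives were DESeq2 1.42.0, other scalings, filters and thresholds, and leaving out each library; those for neighbours were chosen after seeing the data. No 2 libraries of a group agreed within sampling noise.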

Additional observations from a re-analysis of the deposited data

Results flagged for a closer look

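For 2 of the 9 tested genes the difference between the single inhibitors was not the same in all lines (edgeR quasi-likelihood F test over the 4 lines). Of all genes tested, 16.6% were called in this way. For ALDH1A1 the adjusted p was 2.19e-08, with the mean with EZH2i above that with DOT1Li in Oci-Ly7, Oci-Ly8 and SUDHL6 and below it in Oci-Ly18. Within Oci-Ly8 the ALDH1A1 difference was not called (adjusted p = 0.152). For GLIS2 the adjusted p was 0.0220, with the EZH2i mean above the DOT1Li mean in Oci-Ly8 and Oci-Ly18 and below it in Oci-Ly7 and SUDHL6. Within lines only the Oci-Ly18 difference was called (adjusted p = 0.000141), and the lower EZH2i means in Oci-Ly7 and SUDHL6 were not. The GLIS2 call was lost in 4 of the fits that left out 1 library (adjusted p = 0.0516 to 0.0939).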

How the results depend on the processing

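The set of 10 genes depends on its thresholds: it held 6 genes with TMM-scaled CPM, 0 with a DMSO limit of 0.25 CPM, 0 with a Combo minimum of 4 CPM, 2 when every library had to pass, and 7 to 11 when 1 library was left out. At 1 CPM in place of 2, 5 of the genes, not 0, passed in 2 or more EZH2i groups. Over 4 lines, the mean of 4 line contrasts called 2 genes higher with EZH2i than DOT1Li in place of 6: PDIA2, the 1 shared call, and ALDH1A1. It ended the calls of RPH3A, IGF1, GLIS2 and MEIS3 and turned GZMA to -0.035. Leaving out 1 library gave 2 to 3 higher calls in Oci-Ly7, 1 to 3 in Oci-Ly8, 0 to 1 lower calls in Oci-Ly8, 1 to 2 lower calls in Oci-Ly18, and 1 to 2 genes that differed between lines. Without the filter on low counts, 2 coding neighbours were higher with Combo than DMSO in Oci-Ly8, and 1 was lower in each of Oci-Ly7, Oci-Ly8 and Oci-Ly18; with DESeq2 size factors 1 was lower in Oci-Ly8 and 1 in Oci-Ly18. Leaving out 1 library gave 1 to 2 lower neighbours in Oci-Ly7, 0 to 2 in Oci-Ly8, 2 to 4 in SUDHL6 and 1 to 2 in Oci-Ly18. Of 645 values of the 22 called contrasts under other settings, 627 kept direction and call, 17 lost the call and 1 reversed. Many of these values are fits of a contrast within 1 line that left out a library of another line. Such a library enters only through scaling, filter and spread, so this tally says little of stability. Among the 22 contrasts, every call within 1 line that was lost came from leaving out a library of that line. Outside them, the neighbour call of DHX34 in Oci-Ly8 also ended without DMSO or Combo replicate 2 of Oci-Ly18. Of 58 values of the 2 called differences between lines, 54 kept the call and 4 lost it.

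Correlations of same-numbered libraries ran from 0.024 to 0.156 over 12 pairs, with 2 over 0.1. Each was above the correlations with other-numbered libraries, of which the highest was 0.00973. The main fit did not take the numbers as pairing, so a fit with a replicate block is given beside it. With a replicate block the member counts were 3 higher in Oci-Ly7, 2 higher and 1 lower in Oci-Ly8, 4 higher in SUDHL6, 3 higher and 2 lower in Oci-Ly18, and 6 higher and 1 lower over 4 lines, as without it; over all genes the higher calls in Oci-Ly7 were 1254 with the block and 1019 without. Group levels of 1 to 3 counts limit what can be said of the low groups.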
